A study of Rattus norvegicus with 22 samples.

Results

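Drug-metabolizing enzymes of the kidney were taken as the genes whose rat symbol begins with Cyp1, Cyp2, Cyp3, Cyp4, Ugt1, Ugt2, Gst or Sult and whose estimated count averaged 10 or more over the rats. The prefixes matched 127 of the 17334 genes listed, and 82 of these reached the count limit. All 82 also passed the filter on low counts and were tested among 12867 genes. They comprise 2 Cyp1 genes, 17 Cyp2 genes, 1 Cyp3 gene, 12 Cyp4 genes, 6 Ugt1 genes, 2 Ugt2 genes, 21 Gst genes and 9 Sult genes. The prefixes Cyp1, Cyp2, Cyp3 and Cyp4 also catch 12 P450 genes whose family number has 2 digits, such as Cyp24a1 and Cyp27b1, most of which act on sterols, steroids, retinoids or vitamin D, and these were kept apart.

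RNA came from the left kidney of 22 male PKD/Mhm (Cy/+) rats aged 8 months, which are heterozygous for the Cy mutation and develop cystic kidneys. All groups carried this mutation, so no group shows a kidney without cysts, and heterozygous animals had been recognised by palpation of the abdomen. The untreated group had 6 rats. A further 6 rats received 2000000 human adipose-derived stromal cells (ASC) each month for 6 months by intraperitoneal injection (i.p. ASC), and 6 received the same cells and dose intravenously (i.v. ASC). The ASC-derived CM group had 4 rats given medium conditioned by such cells, also each month for 6 months. The route of the medium is not in the labels, and the sources differ on it. Each rat is a separate animal known by its number, and what the order of the numbers stands for is not given.

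P450 enzymes (Cyp genes) oxidise foreign compounds, fatty acids and steroids with electrons passed on by a reductase. The products are then joined to glucuronic acid by UDP-glucuronosyltransferases (Ugt), to glutathione by glutathione S-transferases (Gst) or to sulfate by sulfotransferases (Sult). In the kidney many of these enzymes sit in the proximal tubule, the segment that takes up filtered solutes and secretes drugs. Renal P450 enzymes also turn arachidonic acid into lipid mediators that act on vessels and salt transport.

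Libraries held 12195682 to 14734772 estimated counts each, with a median of 12915592. Levels are given as CPM, a gene's count relative to the library total after TMM scaling, and levels of different genes are compared only in deposited TPM, which is per transcript length. Markers of the proximal tubule, 11 genes with no member among them, were present in every rat, with a summed level of 1891 to 12800 CPM. Among the i.v. ASC rats, animals 3, 9, 10 and 13 had summed urothelial markers of 230, 412, 18.9 and 97.4 CPM, above the highest rat of the other groups at 11.96 CPM. Without these 4 rats the group has 2 rats, 8 and 14, and the leading i.v. ASC results are also given so. The hepatocyte markers summed to 26.8 to 114 CPM, with albumin (Alb) at no more than 0.162 CPM in any rat. Leukocyte markers summed to 132 to 636 CPM, fibroblast markers to 535 to 1876 CPM, red cell markers to 16.3 to 340 CPM and podocyte markers to 140 to 651 CPM. In untreated, i.p. ASC, i.v. ASC and CM rats the podocyte markers averaged 457, 364, 278 and 301 CPM. In the same order distal tubule markers averaged 2377, 2011, 1669 and 1378 CPM. Loop of Henle markers averaged 3405, 4931, 4981 and 5637 CPM and collecting duct markers 824, 813, 1143 and 768 CPM. For these lists the treated rats overlapped the untreated rats, and the differences were not tested by list.

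The promoters of 2 pairs of close paralogs are shown because the members of each pair kept nearly the same ratio over the rats. The ratio varied 1.45-fold and 1.51-fold in these pairs. In the other pairs compared it varied from 1.59-fold (Gstm1 to Gstm2) to 12.1-fold (Cyp4a2 to Cyp4a1). Both pairs shown also share reads, as described below. RefSeq promoter sequences were matched for 70 of the 82 members, and the 250 bases before the start in that table were used for the counts and identities. The table's start lies 32 bases inside the whole span of Cyp4a3 and 114 bases inside that of Sult1c2a, and these bases are not printed. The Cyp4a genes encode hydroxylases of fatty acids and arachidonic acid, and the genes of the Cyp4a2 and Cyp4a3 pair lie near each other on chromosome 5 of the build GRCr8, on the minus strand, with promoters at chr5:134170909-134171158 and chr5:134352269-134352486. Capitals mark AGGTCA, the core of sites read by nuclear receptors, searched on both strands.
Cyp4a2: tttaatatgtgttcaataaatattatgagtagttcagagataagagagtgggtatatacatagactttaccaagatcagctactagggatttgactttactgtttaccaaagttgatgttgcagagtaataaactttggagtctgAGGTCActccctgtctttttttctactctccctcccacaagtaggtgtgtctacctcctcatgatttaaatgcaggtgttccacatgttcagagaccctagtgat
Cyp4a3: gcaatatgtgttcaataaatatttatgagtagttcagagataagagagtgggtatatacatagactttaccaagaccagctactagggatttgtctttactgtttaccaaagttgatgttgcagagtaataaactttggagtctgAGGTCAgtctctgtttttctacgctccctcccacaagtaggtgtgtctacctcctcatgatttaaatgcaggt
In a global alignment of the whole windows, 236 of 255 columns were identical (92.5%), the highest identity among 71 pairs of members of a subfamily, whose median was 45.9%. The motif AGGTCA was found in the promoters of 13 of the 70 members (18.6%) and in 3751 of all 27457 promoters of this length (13.7%). The sulfotransferase pair Sult1c2a and Sult1c2 lies on chromosome 9, with promoters at chr9:7103317-7103452 on the minus strand and chr9:7436731-7436980 on the plus strand. These carry none of the motifs searched, so nothing is in capitals.
Sult1c2a: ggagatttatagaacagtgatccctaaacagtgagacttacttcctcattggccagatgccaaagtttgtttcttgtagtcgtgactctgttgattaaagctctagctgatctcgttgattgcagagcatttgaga
Sult1c2: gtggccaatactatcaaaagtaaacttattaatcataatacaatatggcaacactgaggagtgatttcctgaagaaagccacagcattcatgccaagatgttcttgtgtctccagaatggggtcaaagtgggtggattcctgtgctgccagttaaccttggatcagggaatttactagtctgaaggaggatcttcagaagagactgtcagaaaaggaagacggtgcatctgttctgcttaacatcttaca
Here 136 of 285 aligned columns were identical (47.7%), near the median of all pairs. Among the other motifs searched on both strands, GCGTG, the core of the site of the aryl hydrocarbon receptor, was in 20 members (28.6%) and 27.2% of all promoters. The core of the antioxidant response element, TGACNNNGC, was in 10 members (14.3%) and 10.2% of all promoters. These are matches of letters in this window and describe no binding.

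Of the genes with the prefixes, the highest mean TPM over the 22 rats was that of Cyp4a2, at 1781. It was followed by Gstp1 at 867, Sult1c2a at 762, Gsta2 at 573, Gstt3 at 553 and Cyp2c23 at 480. Several P450 genes known from liver were absent or nearly so. Cyp2a1, Cyp2a2, Cyp2b3, Cyp2c7, Cyp2c12 and Cyp2c13 were listed at 0 in all 22 rats, together with 6 others (Cyp2b12, Cyp2b15, Cyp2b21, Cyp2g1, Ugt2a1 and Ugt2b37). Cyp1a2 had a mean of 0.682 counts, Cyp2b1 0.205, Cyp3a2 0.0909 and Cyp3a23-3a1 0.172. Just inside the count limit were Cyp27b1, which activates vitamin D, at 13.1 and Ugt1a9 at 13.1 mean counts. Just outside it were Sult2a1, which sulfates steroids and bile acids, at 9.85 and Gstp3 at 8.95. A member with so few counts is known with little precision.

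No member passed an adjusted p of 0.05 by edgeR's quasi-likelihood test in any comparison with the untreated group. In the i.p. ASC group 0 of 82 members passed, as did 0% of all genes tested, and the smallest adjusted p of a member was 0.771. In the i.v. ASC group 0 members and 0% of all genes passed, with a smallest member adjusted p of 0.523. In the ASC-derived CM group 0 members and 0% of all genes passed, with a smallest member adjusted p of 0.711. A test for any difference among the 4 groups found 0 members against 0.0855% of all genes, 11 in number, and its smallest member adjusted p was 0.912. By DESeq2 0 members passed in each comparison, with smallest adjusted p of 0.843 for Cyp1a1, 0.379 for Gsta3 and 0.458 for Ugt1a2, where it called 0, 28 and 5 of all genes. In the CM comparison DESeq2 gave no adjusted p for 12 of the 82 members. At an unadjusted p under 0.05 the members numbered 8 in i.p. ASC, 8 in i.v. ASC, 19 in ASC-derived CM and 3 in the test of any difference, for which the background was 4.11% of all genes.

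Most members had a higher mean in the treated groups, without reaching the threshold. The summed TPM of the 82 members was 6223 ± 1432 (SD, n = 6) in untreated rats, 9209 ± 4634 (n = 6) in i.p. ASC, 9199 ± 4433 (n = 6) in i.v. ASC and 10253 ± 4278 (n = 4) in ASC-derived CM. The lowest to highest rat ran from 4002 to 8367 in the untreated group, from 4686 to 16064 and 4938 to 16856 in the ASC groups and from 7132 to 16276 in the CM group, so that all groups overlapped. The summed proximal tubule markers ranged alike, from 1891 to 5470 CPM in untreated, 2219 to 12438 CPM in i.p. ASC, 2905 to 12800 CPM in i.v. ASC and 4817 to 12408 CPM in CM rats. This sum leans on the abundant markers, among them Slc7a13, which averaged 259 CPM in untreated rats and 1020, 1052 and 1216 CPM in the treated groups. With the 11 markers scaled alike, as in the score used below, the group means were closer to the spread between rats. They were -0.198, 0.0870, -0.0684 and 0.269, with SD of 0.43 to 0.84. The proximal tubule markers did not all go one way. Of the 11, 8 had a positive log2 fold change in i.p. ASC, 8 in i.v. ASC and 9 in ASC-derived CM, while the sodium-glucose cotransporter Slc5a2 averaged 141 CPM in untreated rats and 84.5, 67.2 and 99.5 CPM in the treated groups, and the lactate transporter Slc5a12 averaged 80.8 CPM against 44.7, 36.1 and 50.1 CPM. In i.p. ASC 55 of 82 members (67.1%) had a positive log2 fold change, against 46.2% of all genes, and the median was 0.21 against -0.01 over all genes. The 8 members with unadjusted p under 0.05 were all higher, where the background was 1.75% of all genes higher and 2.14% lower. In i.v. ASC 60 members (73.2%) were positive against 47.5% of all genes, with a median of 0.35 against -0.01, and the 8 members with unadjusted p under 0.05 were again all higher, against 3.81% of all genes higher and 5% lower. Without the 4 i.v. rats with urothelial markers that median was -0.046, 31 of 82 members were positive and 1 member had an unadjusted p under 0.05. The shares of all genes were not counted in that fit. Among the abundant members, Cyp4a2 then had an i.v. log2 fold change of -0.17 (SE 0.74) in place of 1.11, Cyp2c23 -0.50 (SE 0.61) in place of 0.67 and Sult1c2a -0.45 (SE 0.63) in place of 0.80. Cyp2c11 had -0.92 (SE 1.85) in place of 2.44 and Ugt1a1 -0.15 (SE 0.40) in place of 0.56. Without i.v. rat 3 alone the i.v. median of the members was 0.20. In ASC-derived CM 59 members (72%) were positive against 49.1%, with a median of 0.29 against 0.00, and of 0.18 without CM rat 2. Of its 19 members with unadjusted p under 0.05, 17 were higher and 2, Cyp4v3 and Ugt1a2, were lower, against 2.84% of all genes higher and 3.75% lower. All 3 comparisons share the untreated rats.

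Rats of a treated and the untreated group did not overlap for few members. In i.p. ASC there were 0 such members, against 0.0155% of all genes higher and 0.124% lower. In i.v. ASC there were also 0, against 0.0233% higher and 0.155% lower. In ASC-derived CM there were 2, Cyp2j3 and Gstt1, both higher, against 0.435% of all genes higher and 0.987% lower.

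**Figure D1:**
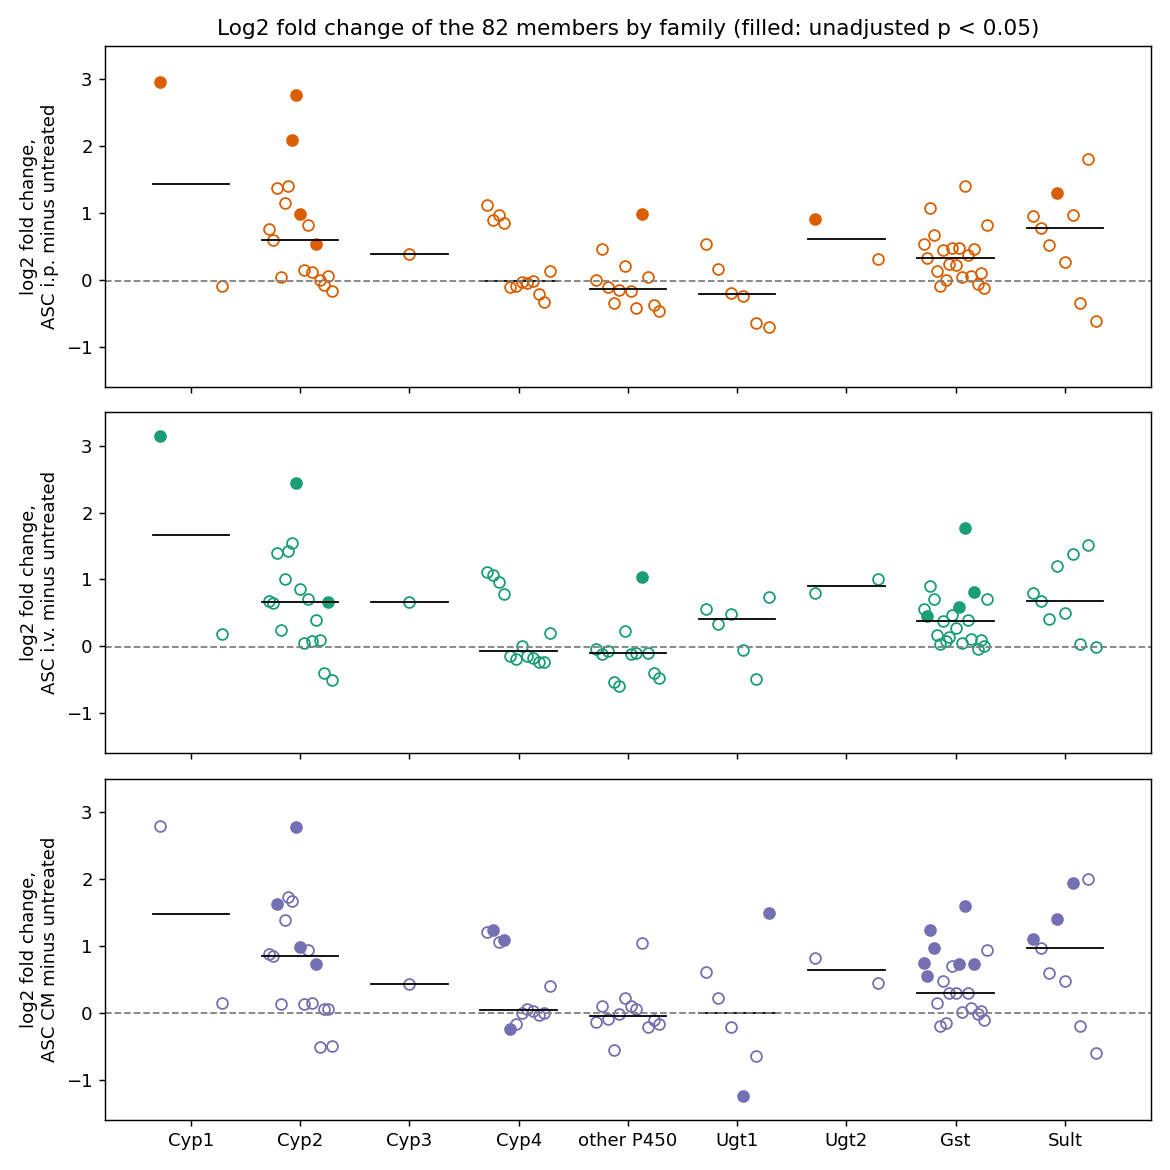
Log2 fold change (treated minus untreated, vertical axis) of each of the 82 members by family, for i.p. ASC, i.v. ASC and ASC-derived CM from top to bottom. Circles are genes, filled where the unadjusted p was under 0.05, short lines are family medians and the dashed line is the median of all 12867 genes. Members of Cyp2, Gst and Sult lie mostly above the dashed line in each panel, the 12 other P450 genes around or below it except Cyp21a1 at 0.98 to 1.05 and Cyp24a1 at 0.46 in i.p. ASC, and none passed an adjusted p of 0.05.

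The spread between rats of a group was wide for these genes. The biological coefficient of variation of edgeR had a median of 0.365 over the members and 0.157 over all genes, and 35 of 82 members lay above the 90th percentile of all genes, at 0.374. The largest values were those of Cyp1a1 (1.37), Cyp2c11 (1.24), Sult2a2 (1.05), Ugt1a5 (0.956) and Cyp2d5 (0.916). Cyp20a1, a P450 with no settled substrate, was the only member below the 10th percentile, at 0.0869. The level of the highest rat was 10 times that of the lowest or more for 16 members and under 2 times for 14, while 3 members (Ugt1a5, Ugt1a9 and Sult2a2) were listed at 0 in at least 1 rat.

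**Figure D2:**
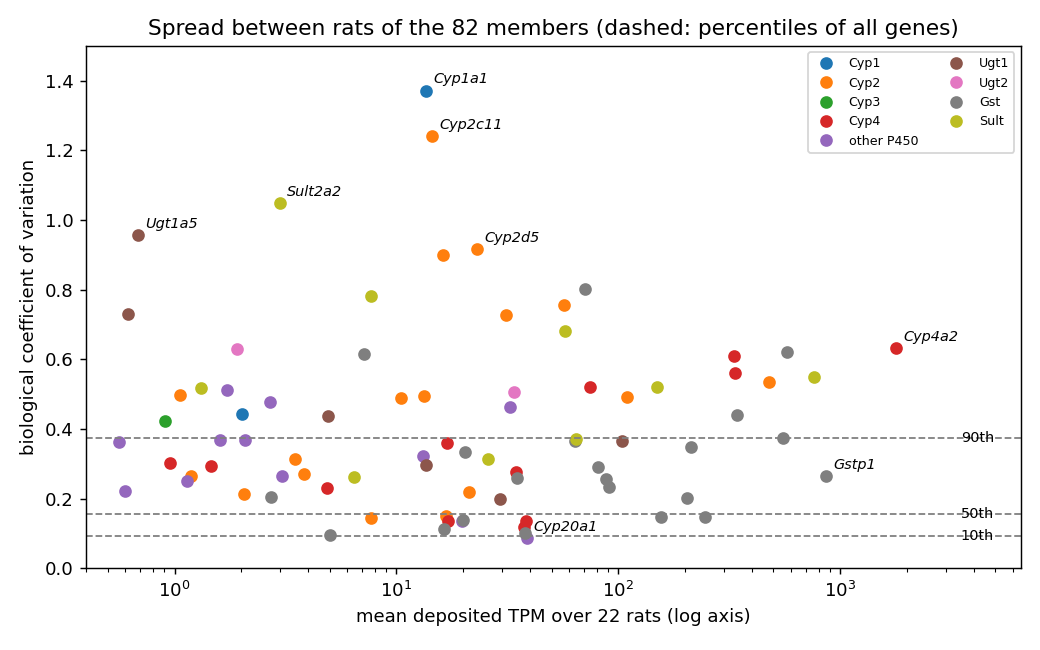
Biological coefficient of variation (vertical axis) against mean deposited TPM over the 22 rats (horizontal log axis) for each of the 82 members, coloured by family. Dashed lines mark the 10th, 50th and 90th percentile of all genes tested at 0.091, 0.157 and 0.374, and 35 members lie above the uppermost line.

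Many members were high in the same rats. Of the 82 members, 51 had their highest level in i.p. ASC rats 5 or 7, i.v. ASC rats 3 or 9 or ASC-derived CM rat 2, and for 27 members these were the 5 highest rats of all. These rats were singled out after their values were seen, so the counts are a description. The same counts were not made over all genes, so whether the pattern is particular to the members was not tested. Untreated rat 1 had the lowest level of 27 members. An untreated rat was the highest for 8 members, among them Ugt1a2, Cyp11a1, Cyp19a1 and Cyp27b1. The 5 rats carry low animal numbers, and only 1 untreated rat has a number under 12. Their mean ranks over the members were 13.9 to 15.5, where 22 is the highest rank. Other rats with numbers under 12 had lower mean ranks. These were 7.44 in untreated rat 1, 10.1 in i.p. ASC rat 6, 11.5 and 12.3 in i.v. ASC rats 8 and 10 and 12.4 in CM rat 11. With the animal number as a covariate, the median log2 fold change of the members was 0.06 in i.p. ASC, 0.10 in i.v. ASC and 0.16 in ASC-derived CM. The part of the animal number in these differences was not tested further.

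Cyp1a1, the P450 that the aryl hydrocarbon receptor induces, had the largest coefficient of variation, while the fold between the highest and the lowest rat was larger for Cyp2c11 (1509) than for Cyp1a1 (654). Both lowest values were those of untreated rat 1, at 0.0655 and 0.262 CPM. These folds rest on very few counts, and their order is known with little precision. The level of Cyp1a1 in the untreated rats was lowest at 0.262, with a median of 3.12 and a highest of 13.3 CPM. The i.p. ASC rats had 0.528, 8.50 and 171 CPM, and the i.v. ASC rats 0.614, 10.6 and 142 CPM in the same order. The ASC-derived CM rats 2, 11, 19 and 21 had 109, 15.1, 4.67 and 1.42 CPM. The groups overlapped throughout, and the high values came from i.p. ASC rat 7, i.v. ASC rats 3 and 9 and CM rat 2. The log2 fold change was 2.96 (SE 1.34, adjusted p 0.771 by edgeR) in i.p. ASC, 3.14 (SE 1.35, adjusted p 0.523) in i.v. ASC and 2.80 (SE 1.42, adjusted p 0.711) in ASC-derived CM. Without i.p. ASC rat 7 the i.p. value was 1.03, and without the 4 rats with urothelial markers the i.v. value was -2.04. Cyp1b1, the other member of the family, differed by 0.15 to 0.18 in the i.v. and CM groups and by -0.09 in i.p. ASC.

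**Figure D3:**
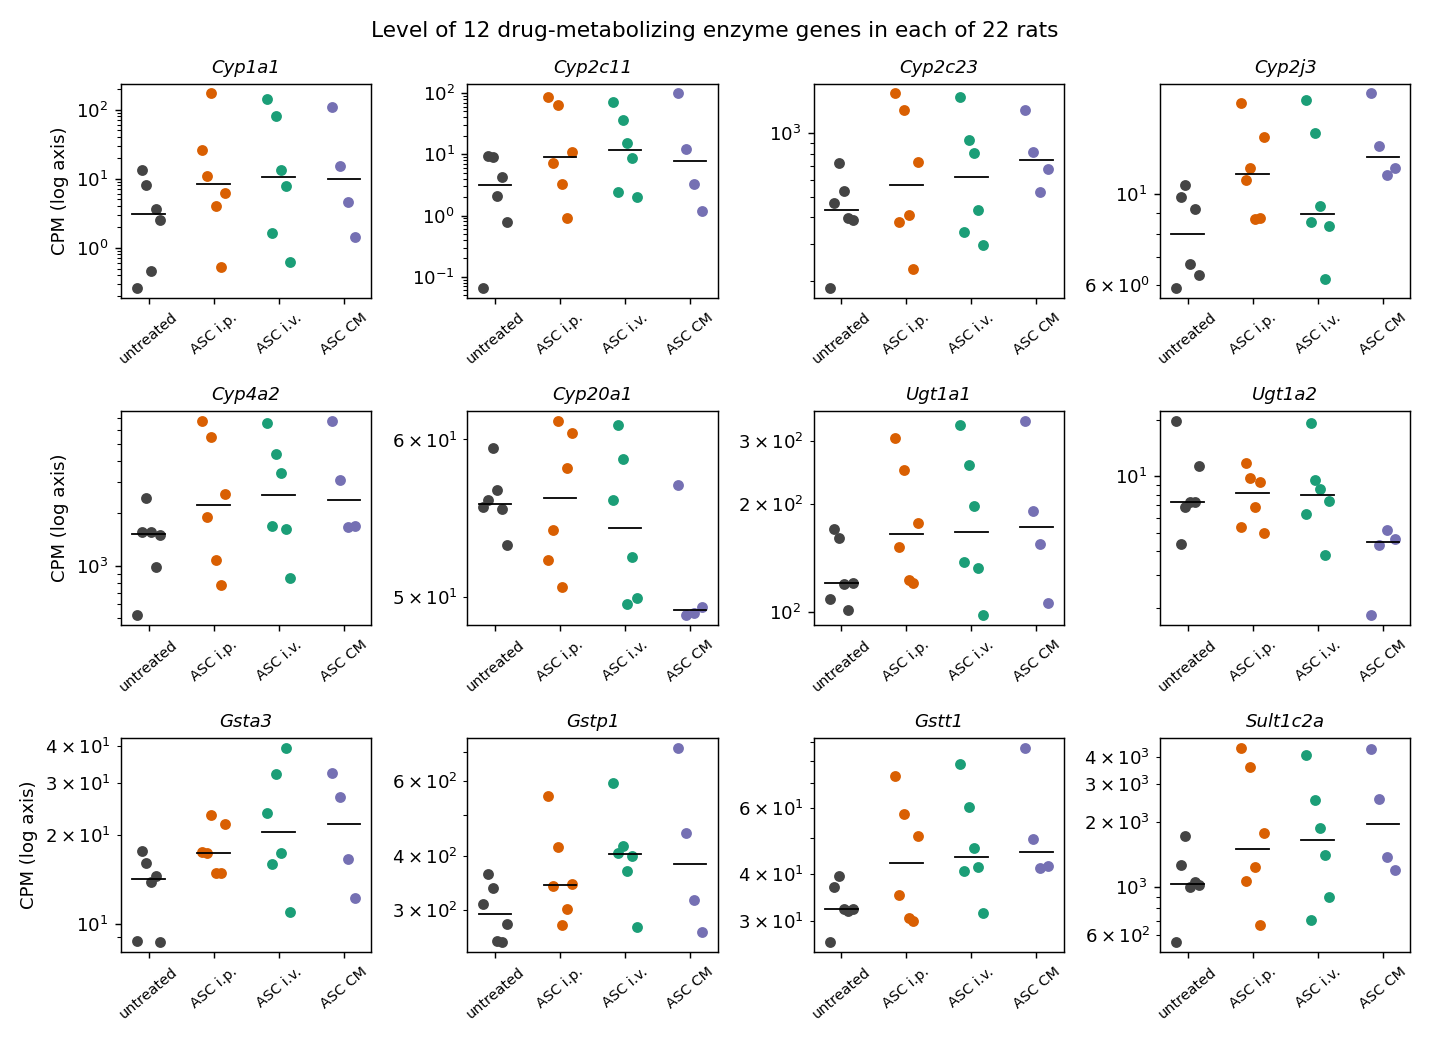
Level in CPM (vertical log axis, scaled per gene) of 12 members in each rat of the untreated, i.p. ASC, i.v. ASC and ASC-derived CM groups. Points are rats and short lines are group medians. For Cyp1a1 the highest treated rats reach 171, 142 and 109 CPM while the untreated rats stay at or below 13.3, for Cyp20a1 all rats lie between 49.0 and 61.3, and for Cyp2j3 and Gstt1 each CM rat lies above each untreated rat.

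Cyp2c23, the main renal epoxygenase of arachidonic acid, was the most abundant Cyp2 gene. Its untreated rats had 185, 432 and 722 CPM as lowest, median and highest. The i.p. ASC rats had 227, 569 and 1541 CPM, the i.v. ASC rats 294, 618 and 1487 CPM, and the 4 CM rats 1291, 811, 524 and 675 CPM. The groups overlapped, and the log2 fold changes of 0.67 to 0.88 had SE of 0.46 to 0.50. Cyp2c11, in liver the leading P450 of male rats, was low in kidney. It had 0.0655 CPM in untreated rat 1, a median of 3.21 and a highest of 9.27 CPM in that group. The CM rats had 98.9, 12.3, 3.30 and 1.19 CPM, and the i.p. ASC and i.v. ASC rats reached 85.5 and 71.9 CPM. Its log2 fold changes were 2.77 (SE 1.18), 2.44 (SE 1.17) and 2.79 (SE 1.25), none past the threshold. Cyp2c24, a relative of Cyp2c11, had the smallest unadjusted p of the members in i.p. ASC. Its untreated rats ranged from 1.05 to 21.2 CPM with a median of 7.55, the i.p. ASC rats from 3.62 to 87.4 CPM with a median of 18.5, and the log2 fold change was 2.09 (SE 0.83, adjusted p 0.771 by edgeR). Cyp2c6v1 was the exception in this subfamily. It lay at 0.851 to 1.73 CPM in untreated and 0.997 to 2.52 CPM in i.v. ASC rats, with a log2 fold change of 0.66 (SE 0.28) there and 0.06 in the other comparisons. Without the 4 rats with urothelial markers the i.v. value was 0.18 (SE 0.40).

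The arachidonic acid epoxygenases Cyp2j3 and Cyp2j4 were each among the 5 members with the smallest unadjusted p in i.p. ASC. Cyp2j3 had 5.89 to 10.5 CPM in untreated rats, with a median of 7.96. The CM rats had 17.6, 13.1, 11.1 and 11.5 CPM, all above the untreated rats, and the log2 fold change was 0.72 (SE 0.25, adjusted p 0.711 by edgeR). The i.p. ASC rats had 8.66, 11.2 and 16.7 CPM, which overlap the untreated rats, with a log2 fold change of 0.54 (SE 0.23). Cyp2j4 had log2 fold changes of 0.99, 0.86 and 0.98, with SE of 0.43 to 0.47. Cyp2e1, which oxidises ethanol and small solvents, had 32.9 to 127 CPM in untreated and 46.1 to 261 CPM in i.p. ASC rats, and log2 fold changes of 0.59 to 0.85 with SE of 0.42 to 0.46. Cyp2d1 and Cyp2d5, of the subfamily that oxidises many basic drugs, varied widely. Cyp2d1 ran from 6.42 CPM in untreated rat 1 to 191 CPM in CM rat 2, and Cyp2d5 from 0.851 to 86.9 CPM in the same rats. Summed over its 4 members, the Cyp2d subfamily had log2 fold changes of 1.27, 1.24 and 1.52, with SE of 0.66 to 0.71. Cyp3a9, the only Cyp3 member, was listed at a mean TPM of 0.901, with 0.458 to 1.82 CPM in untreated and 0.997 to 1.94 CPM in i.v. ASC rats.

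Cyp4a2 held most of the Cyp4 level. The untreated rats had 521, 1529 and 2447 CPM as lowest, median and highest. The i.p. ASC rats had 778, 2242 and 6788 CPM, the i.v. ASC rats 852, 2555 and 6529 CPM, and the CM rats 6729, 3081, 1666 and 1685 CPM. The ranges overlapped, and CM rats 19 and 21 lay within that of the untreated rats. The log2 fold changes were 1.12 (SE 0.55), 1.11 (SE 0.55) and 1.20 (SE 0.60). Its paralog Cyp4a3, with the near-identical promoter shown above, had 0.97, 0.96 and 1.06. The ratio of Cyp4a2 to Cyp4a3 in TPM stayed between 4.38 and 6.37 over the 22 rats, while the TPM of Cyp4a2 varied 11.3-fold. Cyp4a8 had 158 to 588 CPM in untreated rats and 1538, 1085, 402 and 308 CPM in the CM rats. Cyp4a1 of the same subfamily had similar group means. These were 23.1 to 26.7 CPM, the log2 fold changes were -0.01, -0.18 and 0.03, and the ratio of Cyp4a2 to Cyp4a1 in TPM ran from 26.7 to 323. Cyp4f1, which oxidises leukotrienes, had log2 fold changes of 0.86, 0.79 and 1.08. The remaining Cyp4f genes, Cyp4b1 and Cyp4v3 had values between -0.34 and 0.41. Cyp4v3, a fatty acid hydroxylase, had 91.4 to 104 CPM in untreated rats and 75.0, 87.5, 91.9 and 83.4 CPM in the CM rats, a log2 fold change of -0.25 (SE 0.12).

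The 12 P450 genes of other families did not share the higher medians of Cyp2, Gst and Sult. Of these, 5 were positive in i.p. ASC, 2 in i.v. ASC and 5 in ASC-derived CM, and their medians were -0.13, -0.10 and -0.05. Counted gene by gene, Cyp4 was alike, with 5, 6 and 7 of 12 positive in the same order and medians of -0.02, -0.07 and 0.05. Its summed level, led by Cyp4a2, was not alike. It averaged 1649 ± 589 TPM (SD) in untreated rats and 2985 ± 2033, 2987 ± 1818 and 3269 ± 1881 TPM in the treated groups, with overlapping rats. The summed level of the 12 P450 genes of other families averaged 125 TPM in untreated rats and 123, 107 and 114 TPM in the treated groups. Ugt1 was mixed, with 2, 4 and 3 of 6 positive and medians of -0.22, 0.41 and 0.002. Cyp20a1 had 53.1 to 59.4 CPM in untreated rats and 56.9, 49.0, 49.1 and 49.4 CPM in the CM rats. Cyp27a1, which hydroxylates sterols, lay at 23.2 to 36.3 CPM in all rats. Cyp24a1, which inactivates vitamin D, had 14.5, 29.9 and 51.9 CPM in untreated rats and 15.4, 42.0 and 74.9 CPM in i.p. ASC rats. Cyp27b1 lay at or below 2.43 CPM in every rat. Cyp21a1, a steroid hydroxylase known from the adrenal cortex, had log2 fold changes of 0.98 (SE 0.46), 1.03 (SE 0.46) and 1.05 (SE 0.50) at a mean of 1.41 CPM in untreated rats. The adrenal cortex markers summed to 26.0 to 70.6 CPM over the rats, with Star, the carrier of cholesterol into mitochondria, at 0.0808 to 1.77 CPM, and their part in this value was not tested. The values of Cyp21a1 were not whole in all 22 rats, so that it shares reads with another gene.

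The Ugt1a members are transcribed from alternative starts of a shared locus and share most of their exons. Ugt1a1, which conjugates bilirubin, was the most abundant, with 101, 120 and 170 CPM in untreated rats. The i.p. ASC rats had 120, 164 and 306 CPM, the i.v. ASC rats 97.8, 167 and 332 CPM and the CM rats 341, 191, 155 and 106 CPM, all overlapping. Ugt1a2 went the other way in the CM group. Its CM rats had 1.83, 4.33, 5.17 and 4.66 CPM, against 4.36, 7.29 and 19.8 CPM in untreated rats, and the log2 fold change was -1.25 (SE 0.44, adjusted p 0.711 by edgeR). It was -0.24 in i.p. ASC and -0.06 in i.v. ASC. Ugt1a9, near the count limit, had 2.39, 0.963, 2.37 and 2.45 CPM in the CM rats and 0 to 1.27 CPM in untreated rats, and it had the smallest unadjusted p of the members in the test of any difference, with an adjusted p of 0.912 by edgeR. Ugt1a6 and Ugt1a7c, which conjugate phenols, lay at 35.4 to 72.6 and 11.8 to 56.2 CPM over all rats. Summed over its 6 members, Ugt1a had log2 fold changes of 0.36, 0.49 and 0.41 with SE of 0.23 to 0.26. In the Ugt2 family Ugt2b35 had 13.4 to 50.3 CPM in untreated and 24.3 to 116 CPM in i.p. ASC rats, and Ugt2b7 lay at 0.556 to 10.9 CPM.

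Glutathione S-transferases were the largest family and together had the highest summed TPM in every group. Of 21 members, 18 were positive in i.p. ASC, 20 in i.v. ASC and 17 in ASC-derived CM, with medians of 0.32, 0.38 and 0.30. Gstp1, the most abundant by TPM, had 252 to 364 CPM in untreated rats, with a median of 293. The CM rats had 716, 453, 316 and 267 CPM, with rat 2 the highest of all 22, and the log2 fold change was 0.55 (SE 0.24). Gsta2, of the alpha class that also reduces lipid peroxides, had 59.7, 152 and 259 CPM in untreated and 727, 322, 194 and 231 CPM in CM rats. Gsta1 of the same class had 98.1 to 248 CPM and 583, 258, 209 and 266 CPM in those groups, a log2 fold change of 0.97 (SE 0.41), and of 0.53 without CM rat 2. Gsta3 had the smallest unadjusted p of the members in i.v. ASC. Its i.v. ASC rats had 10.97, 20.5 and 39.4 CPM against 8.64, 14.2 and 17.6 CPM in untreated rats, a log2 fold change of 0.81 (SE 0.28, adjusted p 0.523 by edgeR). The highest were rats 13 and 9, at 39.4 and 32.1 CPM, and without the 4 rats with urothelial markers the value was 0.03 (SE 0.34). Gsta5, whose product detoxifies aflatoxin, had 0.982 to 31.1 CPM in untreated and 4.91 to 95.3 CPM in i.v. ASC rats, a log2 fold change of 1.77 (SE 0.71), and of 1.07 (SE 0.997) without those 4 rats.

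The theta class enzyme Gstt1 was higher in each CM rat than in each untreated rat. Untreated rats had 26.3, 32.3 and 39.5 CPM as lowest, median and highest. The CM rats had 86.9, 49.5, 41.5 and 42.1 CPM, so that 2 of them lay within 3 CPM of the highest untreated rat, and the log2 fold change was 0.73 (SE 0.27, adjusted p 0.711 by edgeR). Without CM rat 2 it was 0.41. In i.v. ASC it was 0.59 (SE 0.24), with rats from 31.6 to 78.9 CPM, and 0.12 (SE 0.33) without the 4 rats with urothelial markers. Gstt3 had 367 to 632 CPM in untreated rats and log2 fold changes of 0.54 to 0.75. The mu class differed little between groups. Summed over its 5 members, Gstm had 237 to 290 CPM in untreated rats and 222 to 262 CPM in the CM rats, and log2 fold changes of 0.01, 0.10 and -0.09 with SE of 0.08 to 0.09.

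Sult1c2a was the leading sulfotransferase. Its untreated rats had 557, 1041 and 1731 CPM as lowest, median and highest. The i.p. ASC rats had 670, 1510 and 4425 CPM, the i.v. ASC rats 709, 1649 and 4098 CPM, and the CM rats 4361, 2562, 1378 and 1201 CPM. The groups overlapped, and the log2 fold changes were 0.95 (SE 0.47), 0.80 (SE 0.47) and 1.10 (SE 0.51). The ratio of Sult1c2a to Sult1c2 in TPM lay between 3.79 and 5.73 over the rats, while the TPM of Sult1c2a varied 6.85-fold. The promoters of this pair, shown above, are about as alike as the median pair. Sult1b1, which sulfates phenols and thyroid hormone, had 9.89 to 42.6 CPM in untreated rats and 122, 72.0, 28.1 and 19.6 CPM in the CM rats. Sult4a1, a gene known from brain, had 2.75, 4.63 and 10.8 CPM in untreated rats and 51.8, 27.4, 7.54 and 3.56 CPM in the CM rats, a log2 fold change of 1.94 (SE 0.75, adjusted p 0.711 by edgeR), and of 1.12 without CM rat 2. Sult1a1, the main phenol sulfotransferase, lay at 27.4 to 50.02 CPM in untreated rats and up to 101 CPM in CM rat 2. Sult2a2 was among the most variable members, at 0 to 7.72 CPM.

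**Figure D4:**
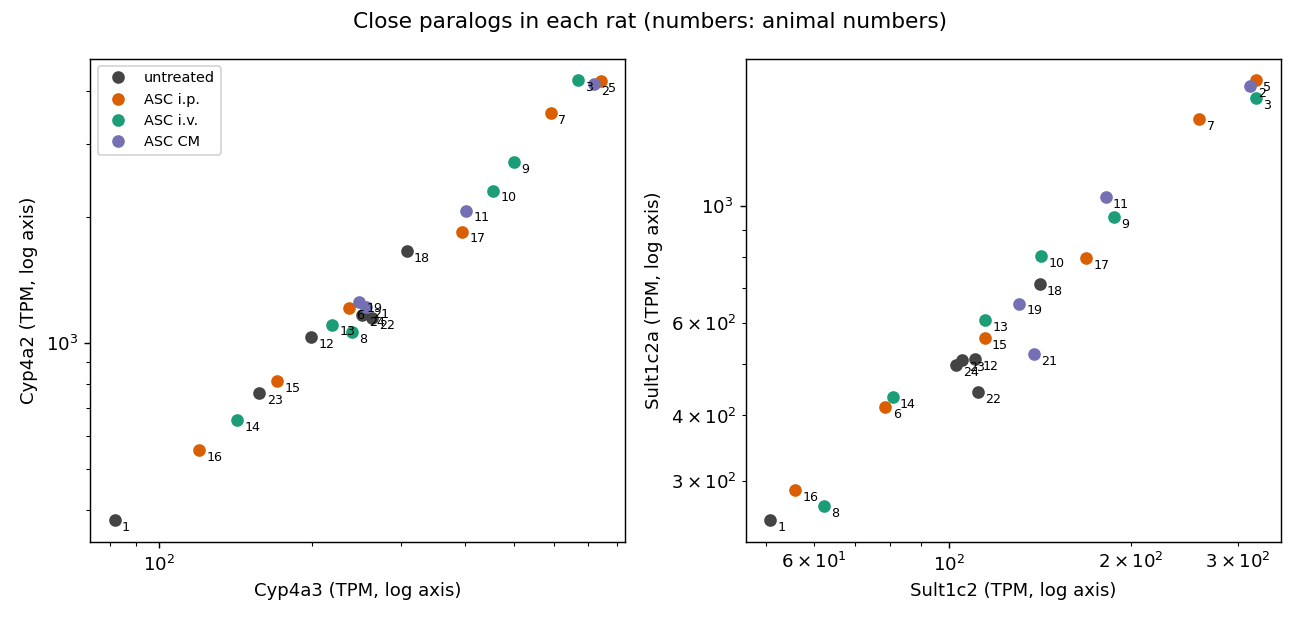
Cyp4a2 against Cyp4a3 (left) and Sult1c2a against Sult1c2 (right) in each of the 22 rats, in deposited TPM on log axes, coloured by group and numbered by animal. The rats form a narrow diagonal band in both panels, with ratios of 4.38 to 6.37 and 3.79 to 5.73, from untreated rat 1 at the lower end to animals 2, 3 and 5 at the upper end.

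Reads shared between close paralogs limit what can be said of single genes. An estimated count that is not a whole number holds reads split between transcripts of different genes. In 36 of the 82 members (43.9%) the values of 11 or more rats were not whole, further than 0.01 from a whole number, against 16.4% of 12572 genes with the same mean count or more. Among the subfamilies this held for all 6 members of Ugt1a, all 4 of Cyp2d, 6 of 7 of Gsta, 4 of 5 of Gstm and 4 of 6 of Cyp4f. Cyp4a2, Cyp4a3, Sult1c2a and Sult1c2 also share reads, at 20, 22, 21 and 22 rats with values not whole. Gstcd, Gstz1 and Cyp19a1, each the only member of its subfamily, had values not whole in 22, 17 and 21 rats. Such values therefore do not always come from a close paralog among the members. Cyp1a1, Cyp2c11, Cyp2c23, Cyp2c24, Cyp2e1, Gstp1, Gstt1 and Gstt3 had whole values in all rats. With the members of each subfamily summed, no subfamily passed the threshold either.

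The members' level was then set against that of the proximal tubule markers over all 22 rats. The score is the mean of the scaled log2 CPM of the 11 markers, and its group means were -0.198 (untreated), 0.0870 (i.p. ASC), -0.0684 (i.v. ASC) and 0.269 (ASC-derived CM). In these bulk samples fewer cells of a type and less RNA per cell cannot be told apart. By edgeR's test of the slope on the score, 41 of 82 members passed an adjusted p of 0.05. Of these, 38 rose with the score, against 13.5% of all genes tested, and 3 fell with it, against 8.7% of all genes. By family, 1 Cyp1, 11 Cyp2, 1 Cyp3, 5 Cyp4, 2 other P450, 1 Ugt1, 1 Ugt2, 10 Gst and 6 Sult genes rose. The largest slopes were those of Cyp1a1 (2.61 log2 units per unit of the score, SE 0.57), Cyp2c11 (2.34, SE 0.45) and Cyp2c24 (1.89, SE 0.32). Cyp2c23 had 1.10 (SE 0.13, adjusted p 4.42e-06 by edgeR), Cyp4a2 1.26 (SE 0.19) and Gsta2 1.30 (SE 0.17).

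The 3 members that fell with the score were Cyp4f5 at -0.29 (SE 0.10), Gstm2 at -0.19 (SE 0.05) and Cyp4v3 at -0.19 (SE 0.05). Cyp4a1 rose with the score at 0.56 (SE 0.12) and Cyp24a1 rose at 0.82 (SE 0.16). Gsta3 and Ugt1a2, named above for their group values, had slopes of 0.12 (adjusted p 0.633 by edgeR) and -0.45 (adjusted p 0.132). With the treatment group in the fit 39 members passed, 35 of them positive, and with the animal number in the fit 47 passed, 38 of them positive. Without the 2 rats farthest from the median score, untreated rat 1 and i.p. ASC rat 16, 42 passed. With the score as a covariate, the median log2 fold change of the members was 0.11 in i.p. ASC, 0.25 in i.v. ASC and 0.23 in ASC-derived CM, and 0 members passed.

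**Figure D5:**
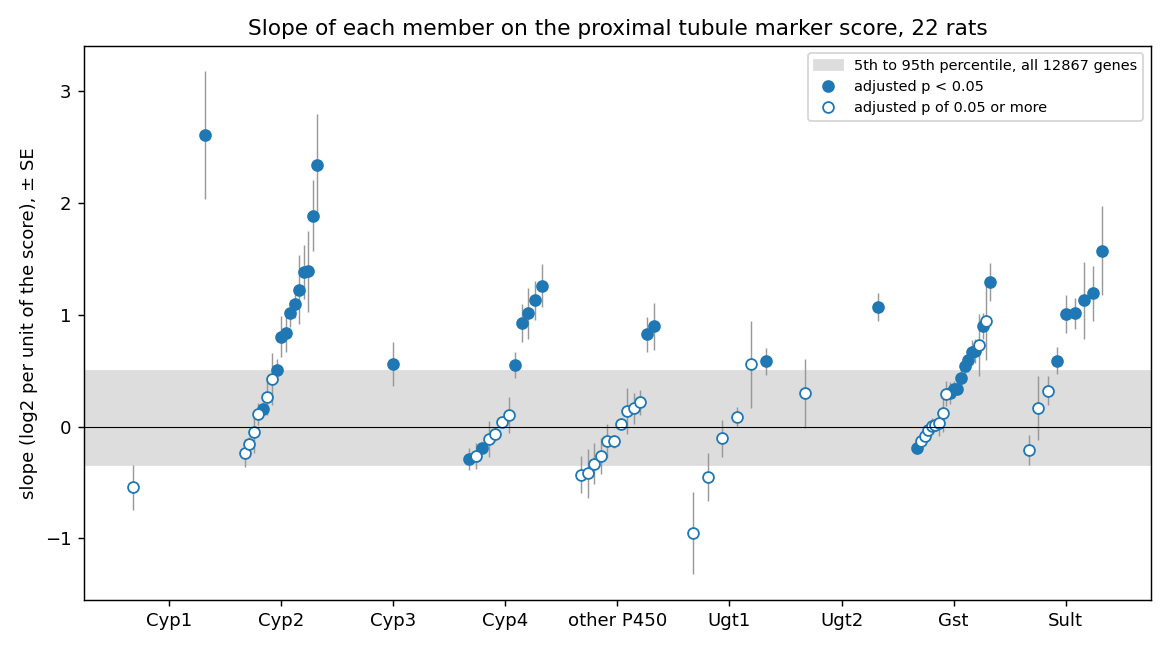
Slope of each of the 82 members on the proximal tubule score (log2 units per unit of the score, vertical axis, bars are SE) by family over 22 rats. Filled points passed an adjusted p of 0.05, and the grey band spans the 5th to the 95th percentile of all genes, -0.34 to 0.50. Above the band lie 36 members, most of them Cyp2, Cyp4, Gst and Sult genes, and 5 lie below it.

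The other genes of drug metabolism were counted in the same way from a list of 59 genes tested. None passed the threshold in a treatment comparison by edgeR. At an unadjusted p under 0.05 there were 7 in i.p. ASC, all higher, against 1.75% of all genes higher and 2.14% lower. In i.v. ASC there were 8, of which 5 were higher and 3 lower, against 3.81% of all genes higher and 5% lower. In ASC-derived CM there were 11, of which 10 were higher and 1 lower, against 2.84% higher and 3.75% lower. Slc22a6 and Slc22a8 are markers in the score and were left out of the counts on it. Of the other 57 genes, 33 rose with the score, against 13.5% of all genes tested, and 1 fell, the transporter Abcb1b at -0.30. The drug transporters rose in 8 of 10. The other conjugation genes rose in 10 of 15, with Gclc, the rate-limiting enzyme of glutathione synthesis, at 1.55, and the electron donors in 4 of 6, with the reductase Por at 0.26. The receptors and factors rose in 4 of 11, among them Hnf4a at 0.86, Nr1i2 (the pregnane X receptor) at 0.55 and Ppara at 0.34. The aryl hydrocarbon receptor Ahr, the regulator of Cyp1a1, differed by -0.12, 0.11 and -0.01 log2 between groups, and its repressor Ahrr by -0.10, -0.97 and -0.59, none past the threshold.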

How the data were processed

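Total RNA of the left kidney of 22 rats was sequenced by the authors on the BGISEQ-500. Per the labels the submitters named Trim Galore 0.6.4, kallisto and the build rn6, and the study named DESeq2. The authors deposited estimated counts and TPM per Entrez gene, without pooling. Estimated counts were rounded, since 12.4% were not whole. Symbols were matched for 17179 of 17334 identifiers through the RefSeq table of GRCr8, used for names only, and promoters are those of RefSeq GRCr8.

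edgeR 4.0.16 in R 4.3.3 (TMM, filterByExpr, quasi-likelihood F test, 4 groups in 1 fit, Benjamini-Hochberg over 12867 genes) gave p-values, and log2 CPM used a prior count of 2. Each SE is approximate, derived as the absolute log2 fold change or slope divided by the square root of its F statistic. Alternatives were DESeq2 1.42.0, RLE size factors, other filters, 2-group fits, limma 3.58.1 on log2(TPM + 1), the score as covariate, summed paralogs and each rat left out. The procedure was run on simulated counts with random genes changed in i.v. ASC and the spread set by edgeR's trend over all genes. Many members varied more than most genes, so this run does not tell what could be detected among them. Replicate pairs differed beyond sampling noise (chi-square per gene at least 7.51). The members, marker lists and lists of other genes were chosen with earlier results of these data known.

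Named were in each family the 3 members highest in TPM, in each comparison the 5 with the smallest unadjusted p, the 5 with the largest spread, those next to the count limit and the 3 largest slopes in each direction. Other members are named as values and were chosen after their values were seen. Identity of proteins was not analysed here, so paralogs were linked by name. Of the motifs searched, 1 is not reported here. The ABCB5+ groups and further CM rats were not analysed here.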

Additional observations from a re-analysis of the deposited data

Results flagged for a closer look

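In groups of 4 or 6 rats, Dixon's ratio on the log2 level was computed for 42 named members, which gives 168 groups, and 4 values, in 3 rats, stood far from the others of their group. Chance gives about 1 in 20 groups, which is more than were found. Cyp20a1 was at 56.9 CPM in ASC-derived CM rat 2 and at 49.0 to 49.4 CPM in the other 3. Ugt1a6 was at 69.7 CPM in the same rat and at 44.6 to 46.8 CPM in the other 3. Ugt1a9, a member of low counts, was at 0.963 CPM in ASC-derived CM rat 11 and at 2.37 to 2.45 CPM in the other 3. Gsta5 was at 4.91 CPM in i.v. ASC rat 14 and at 35.4 to 95.3 CPM in the other 5.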

How the results depend on the processing

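No member passed the threshold in a treatment comparison under any alternative or with any rat left out, and the smallest adjusted p of a member, over 11 alternatives other than leaving out 1 rat, lay between 0.66 and 1 in i.p. ASC, between 0.379 and 1 in i.v. ASC and between 0.405 and 0.922 in ASC-derived CM. The median log2 fold change of the members kept its direction with each rat left out, at 0.14 to 0.27 in i.p. ASC, 0.20 to 0.44 in i.v. ASC and 0.18 to 0.41 in ASC-derived CM. Without the 4 i.v. ASC rats with urothelial markers, an alternative chosen after the data were seen, the i.v. median was -0.046 and Cyp1a1 in i.v. ASC was -2.04 in place of 3.14, and the cause was not tested.

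The members past the threshold for the slope on the proximal tubule score numbered 37 to 48 with each rat left out and 39 to 47 in other fits of single genes. They were 25 of 52 with close paralogs summed and 25 of 45 with subfamilies summed (the latter chosen after the data were seen), where fewer genes were tested.

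Counts of members at an unadjusted p under 0.05 moved most. The share of all genes at this p was counted in the main fit only. Changes in these counts therefore cannot be told from changes over all genes. In i.p. ASC, i.v. ASC and ASC-derived CM they were 8, 8 and 19, and 18, 21 and 33 in fits of the 2 groups alone, 2, 5 and 9 with limma-trend, 1, 12 and 7 with the score as covariate, and 0, 1 and 4 with the animal number as covariate, chosen after the data were seen. By DESeq2 they were 16, 18 and 26, with paralogs summed 6, 5 and 11 and with subfamilies summed 5, 4 and 10. Without the 4 i.v. rats the counts in i.p. and i.v. ASC were 16 and 1. Leaving out 1 rat gave 1 to 25 in i.p. ASC, 2 to 25 in i.v. ASC and 2 to 36 in ASC-derived CM. In i.p. ASC 1 was left without untreated rat 1, 22 or 24 or i.p. rat 5 or 7 and 3 without untreated rat 23, and there were 14 to 25 without i.p. rat 6, 15 or 16, untreated rat 18, i.v. rat 3 or CM rat 2. In i.v. ASC 2 to 5 were left without i.v. rat 3 or 9 or untreated rat 1, 22, 23 or 24, and there were 13 to 25 without i.v. rat 8, 13 or 14, i.p. rat 5 or 16, CM rat 2 or untreated rat 18. In ASC-derived CM 2 were left without CM rat 2, 6 to 8 without CM rat 11 or untreated rat 1, 22, 23 or 24, and there were 36 without CM rat 21. The summed level of the 2-digit P450 families in i.v. ASC was 0.852 of that in untreated rats by TPM. By CPM the difference was smaller, at a mean of 153 ± 5.5 CPM (SD) in i.v. ASC and 166 ± 20 CPM in untreated rats.

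No paired analysis was possible because each rat has an animal number of its own. What 4 to 6 rats a group can resolve differed between members, with an SE of the log2 fold change of 1.34 to 1.42 for Cyp1a1 and 0.06 to 0.07 for Cyp20a1.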
